A study of Canis lupus familiaris with 10 samples.

Results

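STUB1 and 9 genes of the HSP70 and HSP90 chaperone machinery with which its protein works were followed in canine B-cell lymphoma cells after inhibition of PRMT5, the arginine methyltransferase that places symmetric dimethyl marks on histones and other proteins. The 9 partners were HSPA8, DNAJB1, ST13, HSPH1, BAG1, BAG3, HSP90AA1, HSP90AB1 and STIP1. A gene was read from the probe set that the array's annotation assigns to its symbol alone, and where there were several, from the one with the highest mean over all arrays. All 10 genes, of 15947 symbols with a probe set of their own, were measured. They had 11 probe sets in all, since ST13 had 2. STUB1 was chosen by its array values, because its level was lower after treatment, so its treated and control values are given as a description with no test.

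Expression was profiled on 10 Affymetrix CanGene 1.0 ST arrays, each hybridized with RNA of a single sample. CLBL-1 cells that had received 100 nM of the selective PRMT5 inhibitor (2 arrays) and CLBL-1 control cells (3 arrays) were collected on day 2, while 17-71 cells given 100 nM of the same inhibitor (3 arrays) and 17-71 control cells (2 arrays) were collected on day 4. The labels name the inhibitor PR220 and the study names it C220. Both are established lines, derived from lymph node and labelled as B-cell lymphoma, and each stands for a single tumour. Since all CLBL-1 arrays are of day 2 and all 17-71 arrays of day 4, effects of line and of collection day cannot be told apart.

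Levels are log2 values from robust multiarray averaging (RMA), on which a difference of 1 is a doubling. Arrays of the same group correlated at 0.99 to 0.993 over all probe sets, treated and control arrays of the same line at 0.988 to 0.991, and arrays of different lines at 0.934 to 0.939. The array medians lay between 3.71 and 3.79. Of 8 B-cell markers 7 were measured, and all 7 lay above the array median in CLBL-1, with summed levels of 62.47 to 62.61 in treated and 63.46 to 64.39 in control cells. In 17-71 only 4 of the 7 did so, with sums of 31.84 to 33.60 in treated and 32.65 to 33.09 in control cells, and the defining markers MS4A1 (2.40 in treated and 2.19 in control cells) and CD79A (3.57 in treated and 3.72 in control cells) did not exceed the array median. Of 7 T and NK cell markers, 3 lay above the array median in CLBL-1 (CD3D, CD3G and CD2, with sums over the 7 of 31.98 to 32.49 in treated and 31.42 to 31.54 in control cells) and 2 in 17-71 (CD3G and CD2, with sums of 26.54 to 27.41 in treated and 27.70 to 28.17 in control cells). Of 6 myeloid markers, LYZ and CD68 lay above it in both lines and CD14, ITGAM, CSF1R and MPO below, with sums of 27.76 to 28.62 in treated and 27.69 to 28.45 in control CLBL-1 cells, and of 32.89 to 33.54 in treated and 32.47 to 33.11 in control 17-71 cells. CD68 averaged 4.29 in treated and 4.13 in control CLBL-1 cells, close to the array medians, against 9.61 and 9.65 in 17-71. In the same order, CD3G averaged 8.88 and 8.96 in CLBL-1 against 4.05 and 4.61 in 17-71. CD2 averaged 4.82 and 4.89 against 8.29 and 8.18. Of 6 stromal, endothelial and epithelial markers, COL1A1 lay above the array median in both lines and PECAM1 in 17-71 alone. The part of these marker differences in the differences between lines was not tested.

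STUB1, also called CHIP, is a ubiquitin ligase that docks through its tetratricopeptide repeats onto the carboxyl terminus of HSP70 and HSP90 and marks the clients they hold for the proteasome. HSP70 binds unfolded segments in a cycle driven by ATP, in which J-domain proteins such as DNAJB1 start hydrolysis and nucleotide exchange factors such as HSPH1, BAG1 and BAG3 release the client. STIP1 hands clients from HSP70 to HSP90, which completes the folding of kinases and transcription factors. The same carboxyl terminal motif is read by STIP1 and by STUB1, and in human cells the balance of these cochaperones is known to sway a client towards folding or degradation.

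In CLBL-1, STUB1 read 4.93 and 5.59 in treated cells, against 6.63, 6.83 and 6.83 in control cells. In 17-71 it read 6.54, 6.38 and 6.44 in treated cells, against 6.89 and 6.91 in control cells. Every treated array lay below every control array of its line, a pattern shared by 3.79% of all probe sets when both lines are asked for. The mean in treated CLBL-1 cells was 5.26 ± 0.469 (SD, n = 2) against 6.76 ± 0.117 (SD, n = 3) in control CLBL-1 cells, a difference of -1.50 (SE 0.209), or 2.83-fold lower. In 17-71 it was 6.46 ± 0.0814 (SD, n = 3) in treated cells and 6.90 ± 0.0131 (SD, n = 2) in control cells, a difference of -0.44 (SE 0.0941), or 1.36-fold lower.

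The treated CLBL-1 arrays carried the widest spread of STUB1 in any group. Without treated replicate 2, the higher of the pair, the CLBL-1 difference was -1.83, and without treated replicate 1 it was -1.17. Averaged over the lines the difference was -0.97 (SE 0.123). The CLBL-1 difference minus the 17-71 difference was -1.06 (SE 0.246) on the log2 scale, a value that moved to -1.39 without CLBL-1 treated replicate 2 and to -0.73 without CLBL-1 treated replicate 1. The mean levels ranked, high to low, as 17-71 control, CLBL-1 control, 17-71 treated and CLBL-1 treated cells. The control groups, neighbours in that order, differed by -0.13 (CLBL-1 minus 17-71), and the treated CLBL-1 arrays lay below all treated 17-71 arrays by a mean of 1.19.

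**Figure D1:**
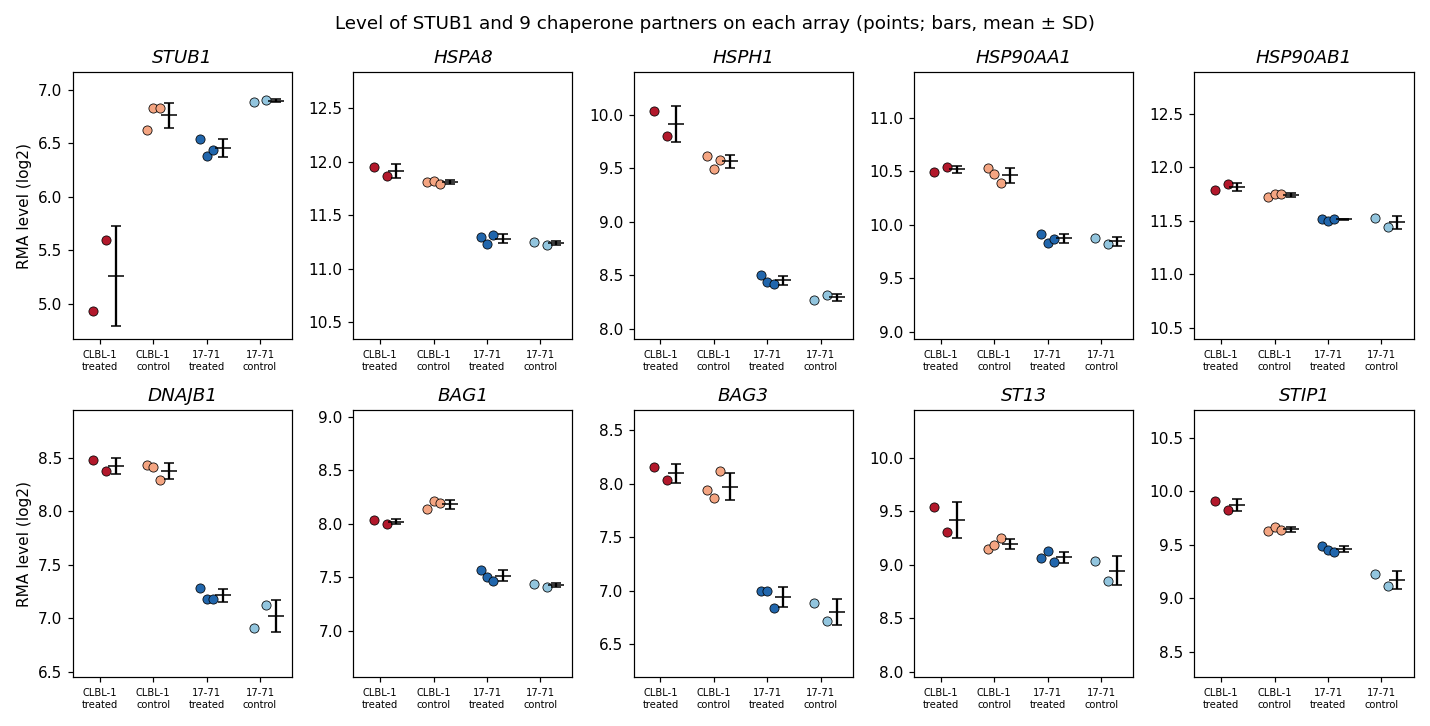
RMA level (log2) of STUB1 and its 9 partners on each array (points) with the group mean and SD (bars), for treated and control CLBL-1 and 17-71 cells. All panels span the same number of log2 units at different heights, so distances but not levels compare between genes. STUB1 reads 4.93 and 5.59 in treated CLBL-1 cells, and all 9 partners lie higher in CLBL-1 than in 17-71.

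None of the 9 partners passed an adjusted p of 0.05 (limma, Benjamini-Hochberg over 32391 probe sets) in CLBL-1, where 0.133% of all probe sets passed, or in 17-71, where 0.0% passed. None passed in the mean of both responses (the common effect, 1.59% of all probe sets) or in the difference of responses between the lines (0.0309%). At an unadjusted p below 0.05, 2 partners passed in CLBL-1 (13.7% of all probe sets), 1 in 17-71 (9.0%), 3 in the common effect (14.5%) and 1 in the difference (11.3%). The partners' differences were small and mostly positive. Their median was 0.10 in CLBL-1 with 8 of 9 above 0, against a median of 0.0057 over all probe sets, and 0.13 in 17-71 with 9 of 9 above 0, against 0.0092. Since the responses of 1 line come from the same arrays, these counts are not independent observations.

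HSPA8, the constitutive cytosolic HSP70 and a docking partner of STUB1, read 11.96 and 11.87 in treated CLBL-1 cells, against 11.81, 11.82 and 11.79 in control cells. In 17-71 cells HSPA8 read 11.30, 11.23 and 11.31 in treated cells, against 11.25 and 11.23 in control cells. The treated CLBL-1 arrays lay above the control arrays, as in 16.9% of all probe sets, and the 17-71 groups overlapped. The differences were 0.10 (SE 0.0833) in CLBL-1 and 0.04 (SE 0.086) in 17-71, and neither passed (adjusted p = 0.648 and 0.919, limma).

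DNAJB1, the J-domain protein that delivers clients to HSP70 and is induced by heat shock, read 8.48 and 8.37 in treated CLBL-1 cells, against 8.43, 8.41 and 8.29 in control cells. DNAJB1 in 17-71 read 7.28, 7.18 and 7.18 in treated cells, against 6.91 and 7.12 in control cells. The groups overlapped in CLBL-1 and did not overlap in 17-71, where treated arrays lay above control arrays in 14.1% of all probe sets. The differences were 0.05 (SE 0.0943) in CLBL-1 and 0.19 (SE 0.106) in 17-71. ST13, or Hip, which holds HSP70 in its tight-binding state, read 9.54 and 9.30 in treated CLBL-1 cells, against 9.15, 9.19 and 9.25 in control cells, and 9.06, 9.12 and 9.02 in treated 17-71 cells, against 9.04 and 8.85 in control 17-71 cells. Treated CLBL-1 cells lay above control cells by 0.23 (SE 0.107, adjusted p = 0.428, limma), and the second ST13 probe set gave 0.21 (SE 0.0852).

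The nucleotide exchange factors differed among themselves. HSPH1, or HSP110, the main exchange factor of the cytosol, read 10.03 and 9.80 in treated CLBL-1 cells, against 9.62, 9.49 and 9.58 in control cells. In 17-71 cells HSPH1 read 8.50, 8.44 and 8.42 in treated cells, against 8.27 and 8.32 in control cells. Treated arrays lay above control arrays in both lines, as in 3.08% of all probe sets, by 0.35 (SE 0.108) in CLBL-1 and 0.16 (SE 0.0867) in 17-71. The common effect, 0.26 (SE 0.0649), did not pass (adjusted p = 0.109, limma).

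BAG1, which couples HSP70 to the proteasome and binds STUB1 in human cells, read 8.04 and 8.00 in treated CLBL-1 cells, against 8.14, 8.21 and 8.19 in control cells. The 17-71 arrays read 7.57, 7.50 and 7.47 in treated cells, against 7.44 and 7.41 in control cells. It was the only partner with a negative response in CLBL-1, -0.16 (SE 0.0828, adjusted p = 0.463, limma), with its treated arrays below its control arrays as in 15.5% of all probe sets. BAG3, which directs HSP70 clients to autophagy, read 8.16 and 8.04 in treated CLBL-1 cells, against 7.94, 7.87 and 8.12 in control cells, and 7.00, 7.00 and 6.84 in treated 17-71 cells, against 6.89 and 6.72 in control 17-71 cells. The BAG3 groups overlapped in both lines.

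For the HSP90 genes, treated and control arrays lay close together. HSP90AA1, the stress-inducible cytosolic HSP90, read 10.50 and 10.54 in treated CLBL-1 cells, against 10.53, 10.48 and 10.39 in control cells, and 9.92, 9.83 and 9.87 in treated 17-71 cells, against 9.88 and 9.82 in control 17-71 cells. HSP90AB1, the constitutive form, read 11.79 and 11.84 in treated CLBL-1 cells, against 11.72, 11.75 and 11.75 in control cells, and 11.52, 11.50 and 11.52 in treated 17-71 cells, against 11.53 and 11.44 in control 17-71 cells. The common effects were 0.04 (95% interval -0.0854 to 0.166) for HSP90AA1 and 0.05 (95% interval -0.0648 to 0.163) for HSP90AB1.

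STIP1, or HOP, the adaptor that holds HSP70 and HSP90 together, read 9.91 and 9.83 in treated CLBL-1 cells, against 9.63, 9.67 and 9.63 in control cells. STIP1 in 17-71 read 9.49, 9.45 and 9.43 in treated cells, against 9.23 and 9.11 in control cells. Like HSPH1, it lay above control in both lines, by 0.22 (SE 0.0831) in CLBL-1 and 0.29 (SE 0.0899) in 17-71. Its common effect of 0.26 (SE 0.0529) had the smallest adjusted p of the partners and did not pass (adjusted p = 0.0587, limma). Whether STIP1 and HSPH1 passed depended on the setting. With an intensity trend and robust variances, STIP1 and HSPH1 passed in the common effect (adjusted p = 0.00185 and 0.0132, limma) and in CLBL-1 (adjusted p = 0.041 and 0.0463) where 4.33% and 4.04% of all probe sets passed. With only the probe sets above the median level tested they passed in the common effect (adjusted p = 0.0106 and 0.0287), as did 9.16% of those probe sets.

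**Figure D2:**
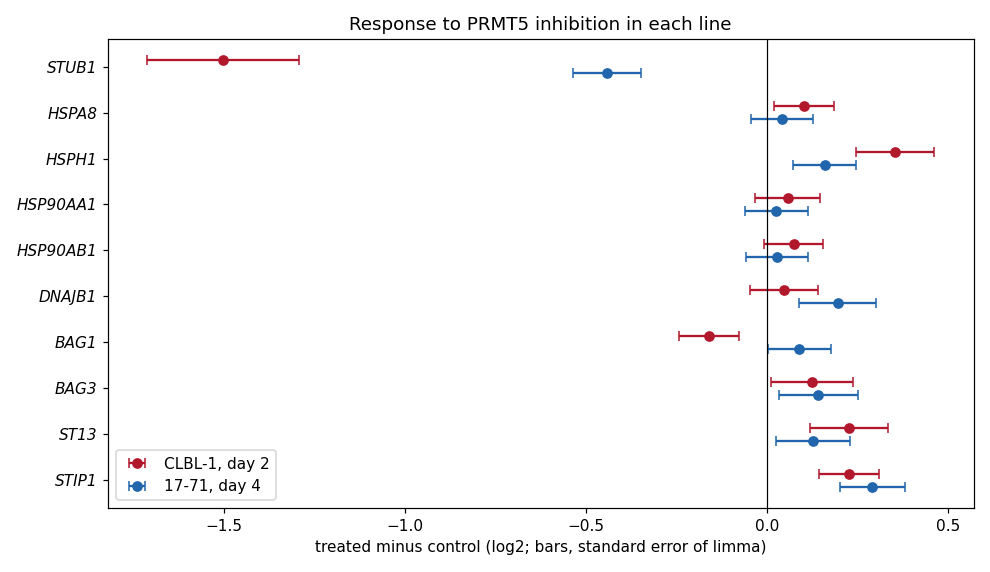
Treated minus control difference (log2, horizontal axis) of each gene in CLBL-1 on day 2 and in 17-71 on day 4, with the limma standard error as bars. STUB1 stands at -1.50 in CLBL-1 and -0.44 in 17-71, while the partners lie between -0.16 and 0.35.

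The partners differed more between the lines than between treated and control cells. All 9 partners had every CLBL-1 array, treated and control, above every 17-71 array, as in 16.9% of all probe sets and 30.5% of those above the median level, where all 9 lie. STUB1 did not. In control CLBL-1 minus control 17-71 cells, 8 of the 9 were higher (limma, adjusted p below 0.05), where 31.5% of all probe sets passed and 16.8% were higher. With only probe sets above the median level tested, 9 of 9 were higher, against 33.3% of those probe sets. The partners' median difference was 0.62, against 0.0053 over all probe sets. DNAJB1 differed most, by 1.36 (SE 0.0946, 2.57-fold), followed by HSPH1 at 1.27 (SE 0.0917, 2.41-fold) and BAG3 at 1.17 (SE 0.108, 2.25-fold), with adjusted p of 6.72e-06, 8.59e-06 and 4.01e-05 (limma).

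The remaining partners differed less between the control groups. BAG1 was higher in CLBL-1 by 0.75 (SE 0.0728), HSP90AA1 by 0.62 (SE 0.0778), HSPA8 by 0.57 (SE 0.0722) and STIP1 by 0.48 (SE 0.0749). Over the other variance models, normalizations and filters these differences went down to 0.635, 0.465, 0.402 and 0.332, with adjusted p up to 0.00724 (limma). HSP90AB1 was higher by 0.26 (SE 0.0704, adjusted p = 0.0219, limma), a call that ended with repeated quantile normalization (0.12, adjusted p = 0.255) and with cyclic loess (0.09, adjusted p = 0.422). It also ended without 17-71 control replicate 2 (adjusted p = 0.139), CLBL-1 control replicate 2 (0.0583) or CLBL-1 control replicate 3 (0.058). ST13 differed by 0.25 (SE 0.0997) and did not pass (adjusted p = 0.095, limma), while its second probe set passed at 0.27 (adjusted p = 0.0238).

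The wider chaperone and ubiquitin system was read through 9 lists of textbook members, with 157 genes measured in all. The 9 partners are among the 157, and some genes, such as HSPH1, stand in several lists. In the common effect 4 of the 157 passed (limma, adjusted p below 0.05), or 2.55% against 1.59% of all probe sets, with 1 higher (0.324% of all probe sets) and 3 lower (1.27%), and within each line 0 passed. With only the probe sets above the median level tested, 137 of the 157 were kept. Then 22 passed in the common effect (16.1%, against 9.16% of those probe sets), STIP1 and HSPH1 among them. In CLBL-1 10 passed (7.30% against 6.18%). PIH1D1, a subunit of the R2TP complex that works with HSP90, read 4.88 and 4.77 in treated CLBL-1 cells, against 6.10, 5.87 and 5.71 in control cells, and 5.01, 5.25 and 4.97 in treated 17-71 cells, against 5.33 and 5.46 in control 17-71 cells. It fell by 0.69 in the common effect (SE 0.0949, adjusted p = 0.0136, limma). That call was lost without 17-71 control replicate 2 (adjusted p = 0.064), CLBL-1 treated replicate 1 (0.057) or CLBL-1 treated replicate 2 (0.0674).

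TRAP1, the mitochondrial HSP90, fell by 0.32 in the common effect (SE 0.0524, adjusted p = 0.0277, limma). DNAJC7, a J-domain protein with tetratricopeptide repeats that binds both HSP70 and HSP90, rose by 0.34 (SE 0.0586, adjusted p = 0.0309). It read 8.40 and 8.40 in treated CLBL-1 cells, against 7.88, 8.04 and 7.93 in control cells, and 8.03, 7.93 and 8.00 in treated 17-71 cells, against 7.81 and 7.69 in control 17-71 cells. HSF2BP, a binding partner of heat shock factor 2, fell by 0.57 (SE 0.095, adjusted p = 0.0281). With any single array left out, TRAP1 gave an adjusted p of 0.0571 to 0.115 and DNAJC7 of 0.0571 to 0.122, and HSF2BP passed only without 17-71 treated replicate 3 (0.0486) or CLBL-1 treated replicate 2 (0.047), and otherwise reached up to 0.112.

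With all probe sets tested, the regulators HSPBP1 and BAG2 and 8 measured E2 enzymes gave 0 calls in the common effect, where 1.59% passed. HSPBP1, an exchange factor that inhibits STUB1 in human cells, read 6.79 and 6.53 in treated CLBL-1 cells, against 6.09, 6.40 and 6.19 in control cells. In 17-71 it read 6.46, 6.40 and 6.27 in treated cells, against 5.97 and 5.96 in control cells. It lay above control in both lines, as in 3.08% of all probe sets, by 0.44 (SE 0.138) in CLBL-1 and 0.41 (SE 0.0991) in 17-71. Its common effect was 0.42 (unadjusted p = 0.000991 and adjusted p = 0.0556, limma). That unadjusted p was below the one of STIP1 (0.00111), whose call depended on the setting. BAG2, another inhibitor of STUB1, was added for that role after its values had been seen, and its common effect was 0.14 (adjusted p = 0.309). Of 11 E2 enzymes listed for STUB1, 8 were measured, with UBE2E3 at 0.17 (adjusted p = 0.301), UBE2N at 0.18 (0.602) and UBE2E2 at 0.13 (0.401) in the common effect. Among 25 measured quality control ligases and adaptors 0 passed, and RNF126, a ligase of the BAG6 pathway, came closest at -0.27 (adjusted p = 0.0607), next to the membrane ligase RNF5 at -0.34 (0.0864). These counts depended on the setting. With only the probe sets above the median level tested, 4 of the 25 passed in the common effect, all lower (16.0%, against 5.87% of those probe sets). Of 14 exchange factors 3 then passed, all higher (21.4%, against 3.30%), and of the 8 E2 enzymes 0. Of 34 J-domain proteins 3 passed, all higher (8.82%, against 9.16% passing in all and 3.30% higher). Of 29 HSP90 family and cochaperone genes 3 were higher and 3 lower (10.3% each, against 3.30% and 5.87%). Of 4 small heat shock proteins 0 passed, and of 4 heat shock factors 1, which was lower.

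The chaperonins and prefoldins act in the folding of actin and tubulin. Of their 14 measured genes, 14 lay above 0 in CLBL-1 (median 0.21) and 12 in 17-71 (median 0.05). Over all probe sets 51.2% lay above 0 in CLBL-1 (median 0.0057) and 52.1% in 17-71 (median 0.0092). None of the 14 passed in either line, where 0.133% and 0.0% of all probe sets did, and PFDN2 (0.38), VBP1 (0.36) and CCT4 (0.20) in CLBL-1 had adjusted p of 0.158, 0.211 and 0.377 (limma). In the common effect 0 of the 14 passed. With only the probe sets above the median level tested, 1 of 13 was called higher in CLBL-1 (7.69%, against 2.22% of those probe sets). In the common effect 3 of 13 then were (23.1%, against 3.30%). HSF1, the transcription factor that drives the heat shock response, had a common effect of -0.05 (adjusted p = 0.733). Small heat shock proteins had a median of -0.02 in the common effect, with 5 of 10 above 0. DNAJC8, a spliceosomal J-domain protein, stood at 0.42 (adjusted p = 0.0501), and HSPA14 and HSPA9, which is the mitochondrial HSP70, at 0.23 and 0.20 (adjusted p = 0.108 and 0.12). Of the 11 HSP70 family genes above the median level, 3 passed in the common effect when such probe sets alone were tested. All 3 were higher (27.3%, against 3.30% of those probe sets). HSPH1 is counted both here and among the exchange factors of that setting.

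Between the control lines 88 of the 157 listed genes passed, or 56.1% against 31.5% of all probe sets. In CLBL-1 50 were higher (16.8% of all probe sets) and 38 lower (14.7%). Without the 9 partners, 80 of 148 passed (54.1%), with 42 higher and 38 lower. Of the 148, 74 lay above 0, with a median difference of -0.0009. With only probe sets above the median level tested, 101 of 137 listed genes passed, or 73.7% against 59.4% of such probe sets. All partners are among the 101. Within the HSP70 family, 7 of 12 measured genes were higher in CLBL-1, among them the cytosolic HSPA4 at 1.28 and HSPA2 at 1.21 and the mitochondrial HSPA9 at 1.17. The 3 that were lower, HSPA5 (BiP, -0.96), HSPA13 (-1.02) and HYOU1 (-0.44), are the family's members of the endoplasmic reticulum. The same held for HSP90B1 (GRP94, -0.92) and for the J-domain proteins of that compartment DNAJB11 (-1.49) and SEC63 (-1.46), all with adjusted p below 0.05 (limma). DNAJB9, another of them, averaged 2.77 in control CLBL-1 cells, below the array medians, and 6.07 in control 17-71 cells. DNAJC3 (-0.08) and DNAJC10 (-0.04), of the same compartment, did not pass, and SYVN1, its ubiquitin ligase, was higher in CLBL-1 by 1.04. This grouping by compartment was made after the values had been seen. The cytosolic J-domain protein DNAJA1 was higher by 1.15 and BAG2 by 0.98. Lower genes were not confined to the endoplasmic reticulum. The HSP90 cochaperones PPID (-0.35), CDC37L1 (-0.33) and UNC45A (-0.60) were lower too (limma, adjusted p below 0.05), as were BAG5, DNAJB4 and DNAJB5.

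Counts of the other lists between the control lines are from the fit of all probe sets (16.8% higher and 14.7% lower). Of 14 measured nucleotide exchange factors, 7 were higher and 2 lower in CLBL-1, with a median difference of 0.46. The higher ones include the partners BAG1, BAG3 and HSPH1. HSPH1, HSPA4 and HSPA4L, and the lower HYOU1, are counted in the HSP70 family too. Of 29 genes of the HSP90 family and its cochaperones 13 were higher and 6 lower, with a median of 0.26. Partners among the 13 are HSP90AA1, HSP90AB1 and STIP1. The 44 measured J-domain proteins had 11 higher and 14 lower (median -0.08), and the 25 quality control ligases and adaptors had 9 higher and 8 lower (median -0.08). Of 14 chaperonins and prefoldins, 5 were higher and 2 lower (median 0.07). Among 10 small heat shock proteins 1 was higher and 0 lower, and among 6 heat shock factors 0 were higher and 2 lower. Among 8 E2 enzymes 1 was higher and 2 lower. With only probe sets above the median level tested, 33.3% of them were higher and 26.2% lower. Then 7 of 14 exchange factors were higher and 3 lower, and of 29 HSP90 genes 18 and 6. Of 34 J-domain proteins 12 were higher and 14 lower, and of 25 ligases and adaptors 9 and 10. Of 13 chaperonins and prefoldins 5 were higher and 2 lower, and of 8 E2 enzymes 3 and 3. Of 4 small heat shock proteins 1 was higher and 0 lower, and of 4 heat shock factors 0 and 3.

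**Figure D3:**
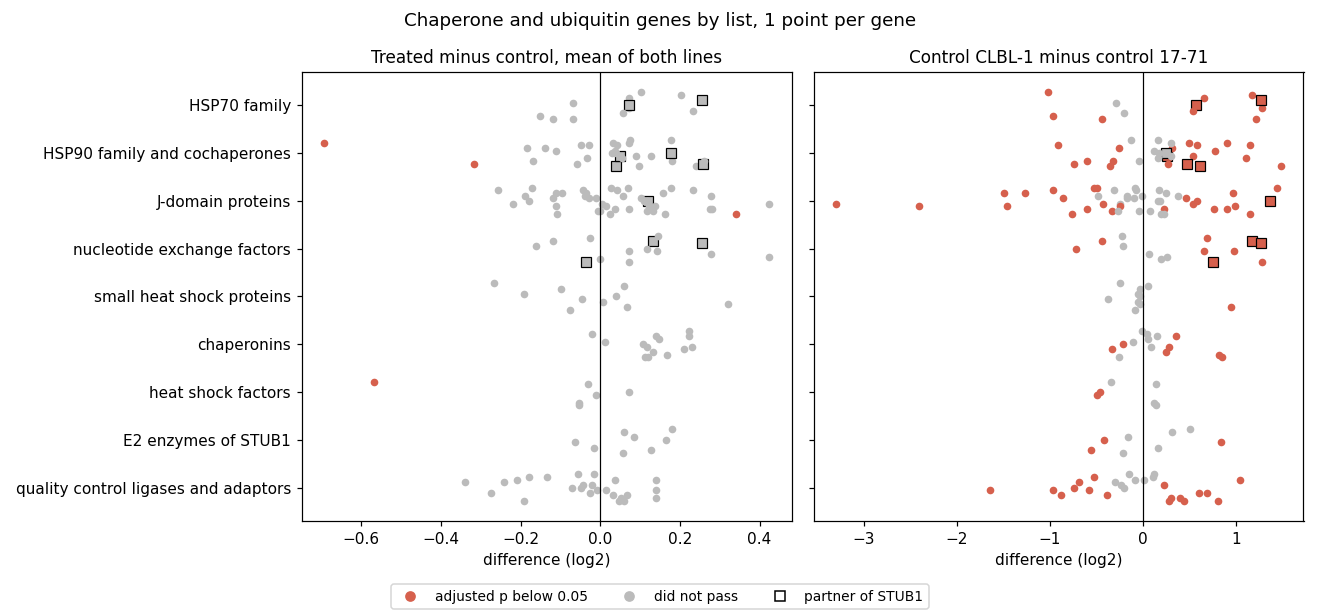
Each point is a gene of the list named on the vertical axis, placed by its log2 difference, for treated minus control averaged over both lines (left) and control CLBL-1 minus control 17-71 (right, wider scale), with genes in several lists shown in each. Red points passed an adjusted p of 0.05, and squares mark the partners of STUB1. On the left 4 genes passed, and on the right 88 did.

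The genes on either side of STUB1 were read in RefSeq order (dog assembly UU_Cfam_GSD_1.0), namely FBXL16, WDR24, JMJD8, STUB1, RHBDL1, RHOT2 and WDR90 on chromosome 6. RHOT2, a GTPase of the outer mitochondrial membrane, read 4.46 and 4.73 in treated CLBL-1 cells, against 5.57, 5.30 and 5.36 in control cells. In 17-71 it read 4.61, 4.68 and 4.66 in treated cells, against 4.99 and 5.18 in control cells. It fell by 0.62 in the common effect (SE 0.0837, adjusted p = 0.0124, limma), a call lost without 17-71 control replicate 2 (0.0582) or CLBL-1 treated replicate 1 (0.057).

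JMJD8, whose annotated span overlaps that of STUB1, read 6.26 and 6.42 in treated CLBL-1 cells, against 6.92, 6.75 and 6.93 in control cells, and 6.35, 6.19 and 6.22 in treated 17-71 cells, against 6.54 and 6.58 in control 17-71 cells. It fell by 0.42 (SE 0.0675, adjusted p = 0.0261, limma), and passed in 2 of the 10 fits that left out an array, with adjusted p of 0.042 to 0.111 over the 10. Treated arrays of RHOT2 and JMJD8 lay below control arrays in each line, as in 3.79% of all probe sets. In the common effect 1.27% of all probe sets passed and were lower. WDR24, on the other side of JMJD8, stood at -0.0044 (SE 0.0681, adjusted p = 0.987) in the common effect. FBXL16 (0.04), RHBDL1 (-0.11) and WDR90 (0.15) did not pass, and their group means, at 2.83 to 3.97, were close to or below the array medians.

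**Figure D4:**
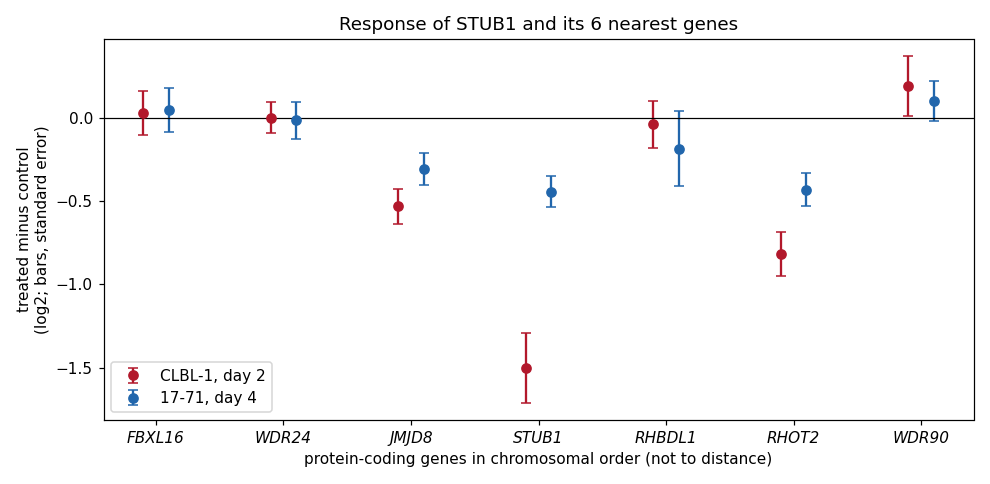
Treated minus control difference (log2, vertical axis) of STUB1 and the 3 protein-coding genes on each side, in chromosomal order and not to distance, in CLBL-1 on day 2 and 17-71 on day 4, with limma standard errors. JMJD8 and RHOT2 lie below 0 in both lines, at -0.53 and -0.82 in CLBL-1, and WDR24 lies at 0.

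The likeness of other genes to STUB1 was described by Pearson's r over the 10 arrays after the mean of each line had been subtracted, so that treatment and the spread between replicates share in it. Among 15946 symbols, GATD3A, ENSA and TEX261 were closest (r = 0.988 each), followed by ZC3H6 and ACOT8 (0.986 each). ENSA, an inhibitor of the phosphatase PP2A in mitosis, differed by -1.10 in CLBL-1 and -0.37 in 17-71, and ACOT8, a peroxisomal thioesterase, by -1.05 and -0.46. The lowest r belonged to BCLAF1 (-0.976), RSF1 (-0.97) and CEP89 (-0.969). Of the partners, HSPH1 stood at -0.955, HSPA8 at -0.848, ST13 at -0.831, STIP1 at -0.777, HSP90AB1 at -0.596, BAG3 at -0.542, DNAJB1 at -0.405, HSP90AA1 at -0.398 and BAG1, the only positive value, at 0.618. Ranked from the highest r among the 15946 symbols, HSPH1 was at place 15928, HSPA8 at 15540, ST13 at 15446, STIP1 at 15114 and BAG1 at 1794. All points share the same arrays and the same treatment contrast, by which STUB1 was chosen, and no p was computed.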

How the data were processed

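The authors deposited log2 values per probe set, made by robust multiarray averaging (RMA, in R 3.1.2 per the methods), which corrects background, equalizes the distributions of the arrays and summarizes probes. Affymetrix Expression Console and limma are named in the submitters' processing notes. Not given in the sources used here were filters and whether both lines were normalized together. RMA would hide a change in total RNA per cell. Of 32391 probe sets, 16545 had a single symbol in the platform annotation, 370 had several and 15476 were unnamed here. All 10 genes were matched by gene ID to RefSeq, and no probe sequence was used, so cross-reading between related family members was not tested.

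The tests used limma 3.58.1 under R 4.3.3 (two-sided, lmFit then eBayes), with Benjamini-Hochberg adjustment over all probe sets and a threshold of 0.05. Each line was fitted alone (residual df 3), and a fit of all 10 arrays (residual df 6) gave the common effect, the difference of responses and the control comparison. The fits were tested on simulated data. Named were the 10 genes, up to 3 genes per list with the smallest p for the common effect, 3 neighbours on each side, and the 5 most and 3 least similar symbols. Other genes named in the text were added after their values were seen. Members and lists were chosen with earlier results of these data known. The labels do not say whether replicates were separate cultures, but the study describes the array experiments as biological triplicates. Treated CLBL-1 and control 17-71 cells have only 2 arrays each. The p-values cover only the spread among these arrays. The number of arrays limits the precision. Alternatives were other variance models, normalizations and filters, the mean of a symbol's probe sets, a replicate block, and leaving out each array.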

Additional observations from a re-analysis of the deposited data

Results flagged for a closer look

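BAG1 was the only partner whose treated arrays lay on opposite sides of the control arrays in the 2 lines: all below in CLBL-1 (-0.16) and all above in 17-71 (0.09). The difference of the responses, CLBL-1 minus 17-71, was -0.25 and did not pass (limma, adjusted p = 0.413, and 0.164 to 0.645 over the other settings).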

How the results depend on the processing

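Counts of partners passing leave out STUB1, which was chosen by its values. With an intensity trend and robust variances, 2 partners (STIP1 and HSPH1) passed in CLBL-1 and 2 in the common effect, and with only probe sets above the median level 2 passed in the common effect, where 9.16% of probe sets did. At an unadjusted p below 0.05 the counts were 2 in CLBL-1, 1 in 17-71, 3 in the common effect and 1 in the difference of responses. The same filter raised the calls among the listed genes to 22 in the common effect (4 with all probe sets tested), 10 in CLBL-1 (0) and 101 between the control lines (88). Leaving out each array kept all 4 treatment counts at 0 and put the control-line count at 7 to 8. Over all probe sets, leaving out an array gave 0 calls in CLBL-1 (43 with all arrays) and 155 to 305 in the common effect (515 with all arrays).

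The replicate numbers did not pair the samples (correlations of same-numbered deviations -0.026 to 0.0079). With the replicate block 0 partners and 0 probe sets passed in the 4 treatment comparisons, with as little as 1 residual df, and TRAP1, PIH1D1, DNAJC7, HSF2BP, JMJD8 and RHOT2 had adjusted p of 0.3 to 0.369. For the control lines the block fit (2 residual df) is left out of the results given here. Replicates are nested in line, so it sets only the replicate 1 baselines of the lines against each other.

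Directions reversed only for small differences that never passed, and the cause was not tested. DNAJB1 in CLBL-1 gave -0.00738 to 0.1 when each array was left out. In 17-71, HSP90AA1 gave -0.00544 to 0.0553 and HSP90AB1 gave -0.0185 to 0.07, and -0.00686 with cyclic loess. In the difference of responses, HSP90AA1 gave -0.00989 and BAG3 0.00136 with the replicate block, and leaving out arrays gave -0.00758 to 0.0637 for HSP90AA1, -0.102 to 0.0687 for BAG3 and -0.0206 to 0.219 for ST13. ST13 passed between the control lines with the trend and robust variances, the filter or the mean of its probe sets (limma, adjusted p = 0.0248, 0.0381 and 0.0453). Over all the other settings its difference ranged from 0.113 to 0.259, with adjusted p up to 0.463. Leaving out each array gave 0.158 to 0.346.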
